A study of Mus musculus with 4 samples.

Results

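The genes described here encode 5 enzymes that make glucose or glycerol 3-phosphate. They are G6pc, G6pc2, Fbp1, Pck2 and Gpd1, chosen by function from the 84 target genes of a quantitative PCR array of the insulin signaling pathway that also carries 5 reference genes. RNA came from whole lung lobes of female mice, whose mixed cell types include epithelium, endothelium, fibroblasts and leukocytes. The p16+/+ mice were wild type B6(Cg)-Tyrc-2J/J. The p16-/- mice were p16Luc animals with the Cdkn2a tm3.1Nesh allele on a background with the same Tyr allele, in which luciferase knocked in at the p16 locus functionally removes p16, a cell cycle inhibitor of senescent cells, in every cell of the body. Mice in room air (RA) were 24 weeks old, and mice in cigarette smoke (CS) were 8 weeks old at its start and were exposed for 16 weeks. There were 4 lungs of p16+/+ RA, 4 of p16+/+ CS, 3 of p16-/- RA and 4 of p16-/- CS.

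Gluconeogenesis turns lactate, amino acids and glycerol into glucose, mainly in liver and kidney, and insulin signaling restrains it. Pck2, mitochondrial phosphoenolpyruvate carboxykinase, makes phosphoenolpyruvate from oxaloacetate early in the route. Fbp1, fructose-1,6-bisphosphatase, takes the phosphate off fructose 1,6-bisphosphate in the middle of it. G6pc, the catalytic subunit of glucose-6-phosphatase, releases free glucose at its end, and G6pc2 is the related subunit of pancreatic islets. Gpd1, the cytosolic glycerol-3-phosphate dehydrogenase, makes glycerol 3-phosphate from a glycolytic intermediate, and glycerol 3-phosphate is the backbone of triglycerides and of phospholipids, which the lung secretes as surfactant.

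The promoter windows of 4 of the genes are shown because the sets of regulatory motifs in them differ, whereas Gpd1 had no entry. They are RefSeq sequences of GRCm38.p6, from 250 bases before the start that the promoter table uses to 50 bases after it, a start that for Fbp1 and Pck2 lies a few bases inside the annotated gene, 5′ to 3′ on the strand of the gene, at chr14:55540016-55540315 (+) for Pck2, chr13:62888233-62888532 (-) for Fbp1, chr11:101367466-101367765 (+) for G6pc and chr2:69210823-69211122 (+) for the first of 2 windows of G6pc2. Capitals mark matches on either strand to motifs of known factor families, and matches that overlap form a single run. The motifs were the forkhead core TGTTT, the composite site of C/EBP and ATF factors written TGATGNAA, the E-box CACGTG, the part of the cAMP response element written TGACG, and the TATA box TATAAA.
Pck2: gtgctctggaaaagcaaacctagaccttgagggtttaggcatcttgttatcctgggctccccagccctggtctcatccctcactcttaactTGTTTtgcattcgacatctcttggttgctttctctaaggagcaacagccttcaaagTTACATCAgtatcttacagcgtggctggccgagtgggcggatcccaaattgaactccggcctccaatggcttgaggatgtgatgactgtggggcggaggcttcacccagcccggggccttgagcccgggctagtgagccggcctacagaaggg
Fbp1: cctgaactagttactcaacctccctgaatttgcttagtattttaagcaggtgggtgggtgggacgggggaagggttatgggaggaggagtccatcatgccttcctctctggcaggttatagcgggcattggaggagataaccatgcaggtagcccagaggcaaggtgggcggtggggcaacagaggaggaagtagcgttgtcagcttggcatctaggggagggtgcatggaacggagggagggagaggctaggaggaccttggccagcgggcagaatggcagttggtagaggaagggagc
G6pc: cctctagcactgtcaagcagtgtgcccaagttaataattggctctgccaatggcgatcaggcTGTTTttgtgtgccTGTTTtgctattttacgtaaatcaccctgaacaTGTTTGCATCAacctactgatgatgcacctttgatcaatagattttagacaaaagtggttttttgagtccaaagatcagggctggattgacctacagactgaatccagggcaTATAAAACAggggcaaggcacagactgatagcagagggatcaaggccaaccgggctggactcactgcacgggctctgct
G6pc2: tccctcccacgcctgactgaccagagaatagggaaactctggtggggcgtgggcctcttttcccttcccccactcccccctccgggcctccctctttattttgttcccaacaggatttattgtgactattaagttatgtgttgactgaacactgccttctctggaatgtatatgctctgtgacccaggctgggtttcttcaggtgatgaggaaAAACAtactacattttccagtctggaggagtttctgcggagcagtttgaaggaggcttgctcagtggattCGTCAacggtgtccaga

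The G6pc window held 4 matches to TGTTT, 1 to TGATGNAA and 1 to TATAAA, with the second motif overlapping one forkhead match and the third overlapping another. The Pck2 window held 1 match to TGTTT and 1 to TGATGNAA. In the first G6pc2 window, shown here, TGTTT and TGACG each matched once, and the Fbp1 window matched none of the 5 motifs. The second G6pc2 window, not shown, held 1 match to TGTTT and 0 to TGACG. Of 32851 mouse promoter windows of this length, 50.5% held TGTTT, 3.97% TGATGNAA, 7.15% CACGTG, 20.8% TGACG and 13.6% TATAAA. A match describes the letters of the window alone.

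Levels were read as CT, the cycle at which the PCR signal crosses its threshold, so 1 cycle less is ideally double the cDNA. The measure compared between groups is -ΔCT, the mean CT of the 5 reference genes of a lung minus the CT of the gene, on a log2 scale on which higher is more RNA. All 75 CTs of the 5 genes were measured below 35 cycles, and 10 were over 30 cycles, of which 4 were Fbp1, 3 G6pc2, 2 Pck2, 1 Gpd1 and 0 G6pc. The reference mean of single lungs lay between 23.4 and 27.3 cycles. The median CT of the 84 targets was 29.4 to 30.7 in p16+/+ RA, 28.2 to 31.7 in p16+/+ CS, 27.3 to 27.9 in p16-/- RA and 26.5 to 27.8 in p16-/- CS. The labels hold a single record for each group, with nothing on separate animals, so p-values measure the spread between these lungs. For p16+/+ RA lung 1, which lacks 2 reference CTs, the reference mean was the one implied by supplementary per-lung data. One lung stood apart: in p16-/- CS lung 4 the reference mean was 26.3 cycles and the median -ΔCT of all targets was -0.45, whereas the other 14 lungs lay between -5.37 and -2.12. This lung held the highest -ΔCT of its group for all 5 genes, so CS differences are also given without it. No gene on the array defines lung tissue and Cdkn2a is not on it, so neither the tissue nor the deletion could be checked.

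Pck2 had a higher level in p16-/- lungs than in p16+/+ lungs in both exposures, by 4.07-fold in RA and 10.3-fold in CS. G6pc2 was 3.97-fold higher in p16-/- lungs in CS. These directions hold for the mean of 5 reference genes: with Gapdh alone as reference, the log2 difference of Pck2 was -1.50 in RA and 0.27 in CS and that of G6pc2 in CS was -1.10, and none of the 3 passed. The direction of the whole array turned as well, since RA had 24 targets higher and 5 lower with 5 reference genes but 0 and 44 with Gapdh alone, and CS had 32 and 1 against 0 and 20. Fbp1 lay in the opposite direction in both exposures, but neither difference passed the test, and neither G6pc nor Gpd1 passed it. With 5 reference genes, in RA 1 of the 5 genes was called higher and 0 lower, by limma with the adjusted p under 0.05 over 84 targets, when 28.6% of all targets were called higher and 5.95% lower. In CS 2 of the 5 were called higher and 0 lower, beside 38.1% and 1.19% of all targets, so the share of calls was near that of the array. The median of the 5 changes was 0.90 (RA) and 1.99 (CS), beside 0.90 and 1.46 over all 84 targets. In bulk RNA, fewer cells of a type and less RNA per cell cannot be told apart.

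**Figure D1:**
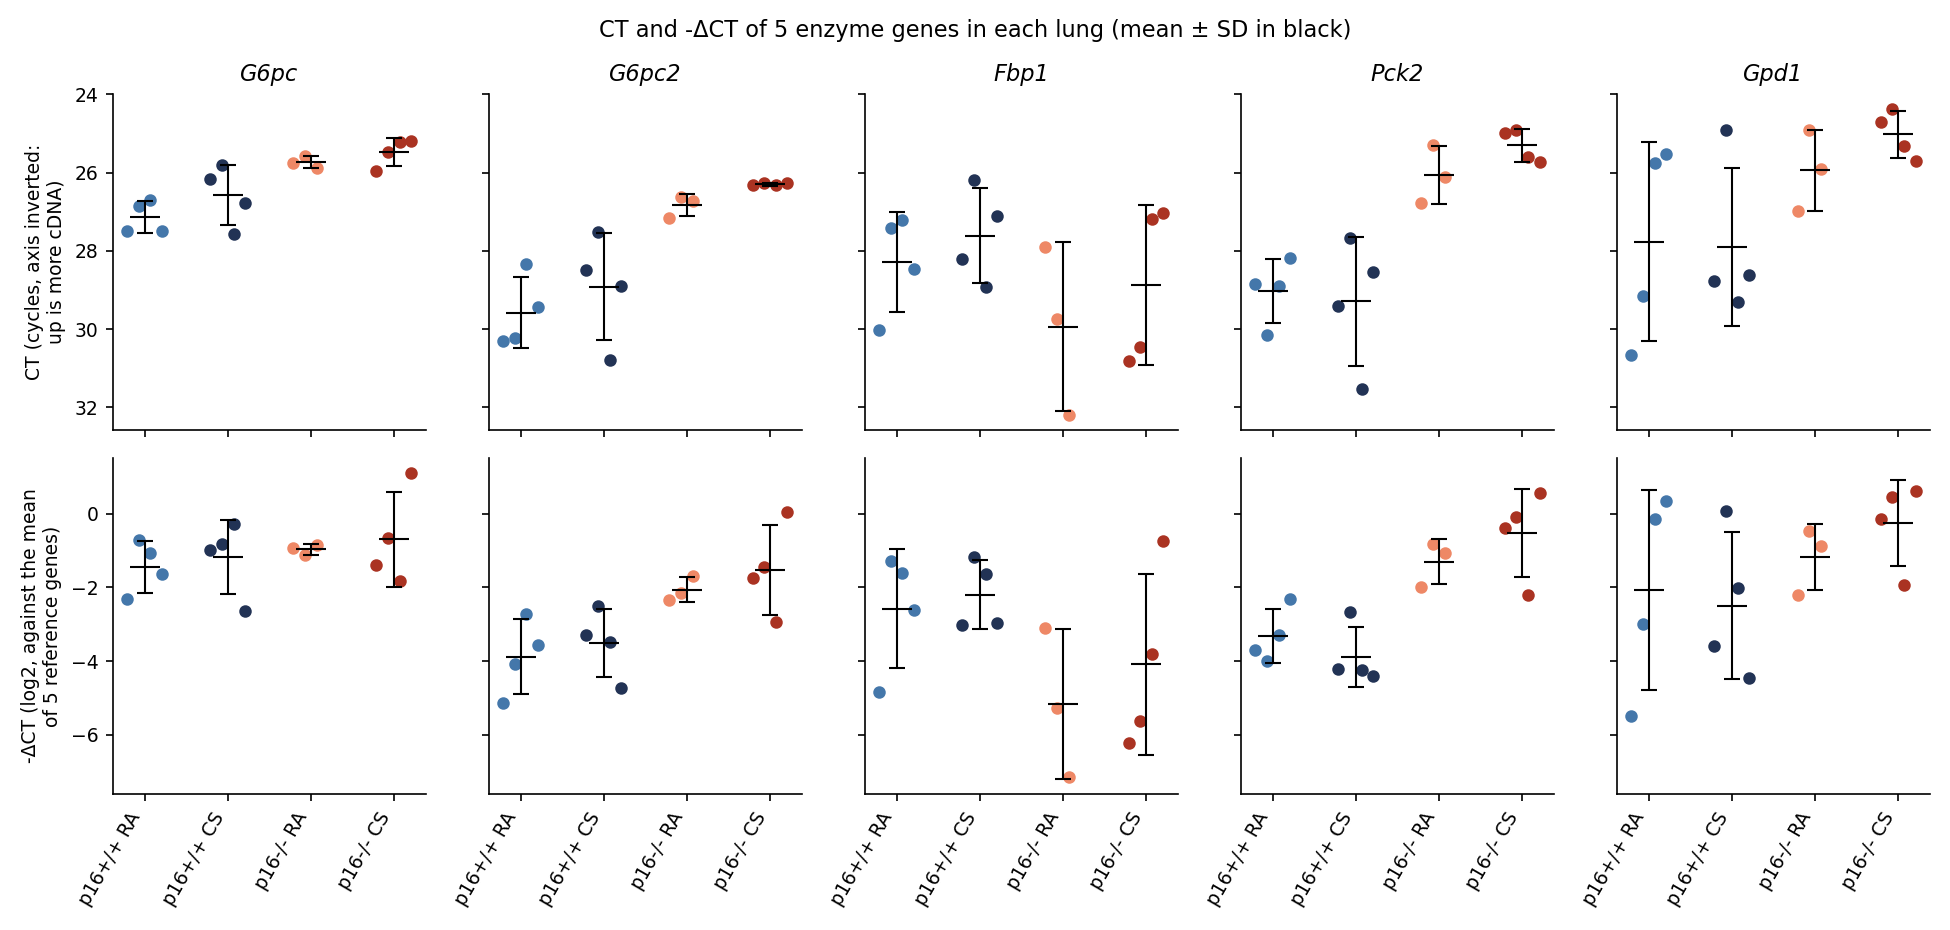
CT (top row, cycles, axis inverted) and -ΔCT (bottom row, log2) of the 5 genes in each of 15 lungs, with 1 point per lung and mean ± SD in black. Pck2 and G6pc2, like 33.3% of all targets, reach their threshold earlier in every p16-/- lung than in any p16+/+ lung, and Gpd1 spreads widely in p16+/+ lungs and Fbp1 in p16-/- lungs.

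Pck2 encodes an enzyme of an early step of the route, and in other cells it is known as a target of ATF4 when amino acids are short. Its CT in p16+/+ RA lungs was 28.9, 30.2, 28.9 and 28.2 cycles, and in p16+/+ CS lungs 29.4, 27.7, 31.5 and 28.5. In p16-/- RA lungs it was 26.8, 25.3 and 26.1, and in p16-/- CS lungs 25.0, 24.9, 25.6 and 25.7. In CT alone, every p16-/- lung preceded every p16+/+ lung, as it did for 33.3% of all targets, and the median target CT given above separated the genotypes too. On the -ΔCT scale the p16+/+ RA lungs were at -3.69, -4.00, -3.29 and -2.32, and the p16-/- RA lungs at -1.99, -0.83 and -1.07. In CS the p16+/+ lungs were at -4.23, -2.66, -4.24 and -4.40, and the p16-/- lungs at -0.39, -0.08, -2.20 and 0.58. The groups did not overlap in either exposure, as was the case for 44% of all targets in RA and 39.3% in CS. The difference was 2.03 ± 0.73 (SE, 95% interval 0.47 to 3.59, limma adjusted p = 0.041) in RA and 3.36 ± 0.68 (1.91 to 4.80, limma adjusted p = 0.0014) in CS. By two-sided exact permutation, p was 0.057 in RA and 0.029 in CS, the latter the smallest that 4 against 4 lungs allow.

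The order of the Pck2 group means was p16-/- CS, p16-/- RA, p16+/+ RA and p16+/+ CS, at -0.52 ± 1.19 (SD, n = 4), -1.30 ± 0.61 (n = 3), -3.32 ± 0.73 (n = 4) and -3.88 ± 0.82 (n = 4). The neighbours of the same genotype overlapped, and the step between genotypes did not. In CS the call of Pck2 was kept in each of 15 fits with 1 lung left out, with differences of 2.99 to 3.92, the lowest without p16-/- CS lung 4 (limma adjusted p = 0.0037). In RA it was lost in 8 of the 15, at differences of 1.79 to 2.04, when the lung left out was number 1, 2 or 3 of p16+/+ RA, number 1 or 3 of p16+/+ CS, number 2 or 3 of p16-/- RA, or number 2 of p16-/- CS. Among 84 targets, Pck2 was the 24th from the highest change in RA and the 15th in CS.

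**Figure D2:**
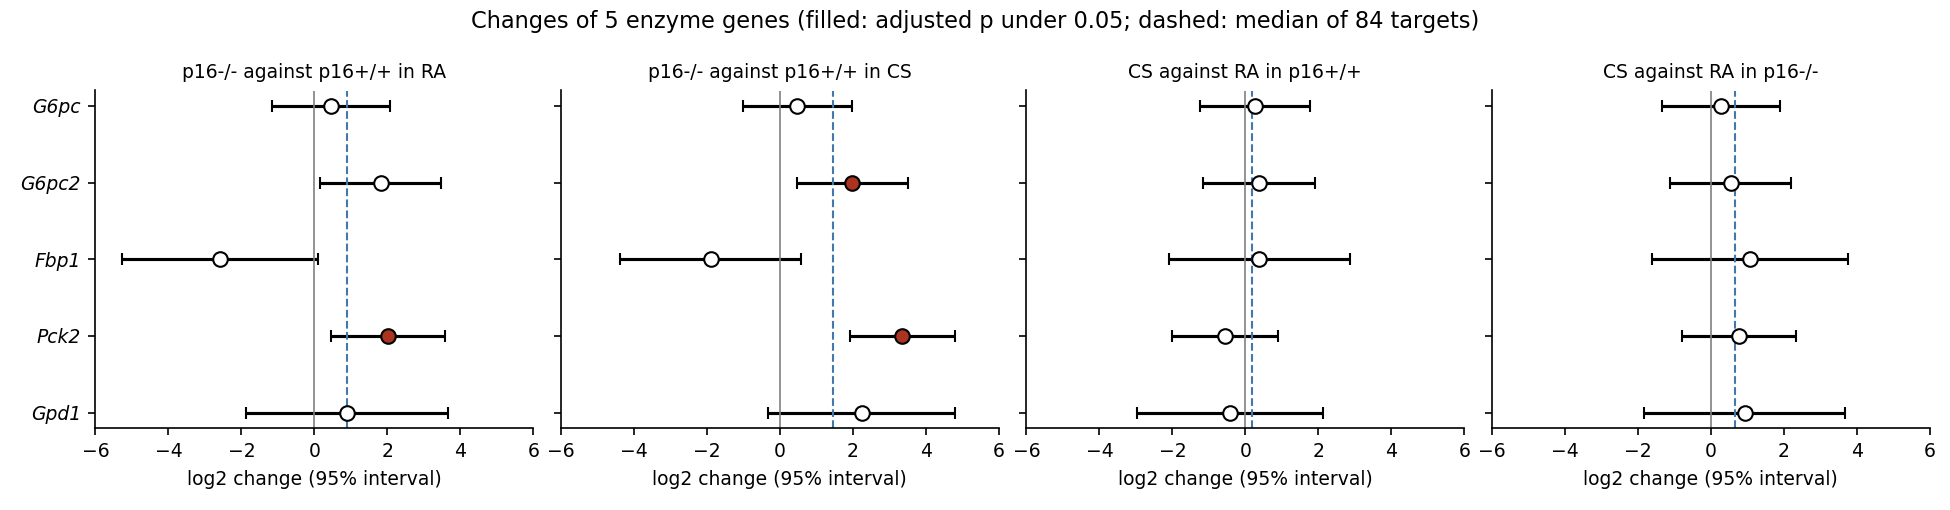
Log2 change of each gene (-ΔCT, first group minus second) with its 95% interval from limma in 4 comparisons. Filled points have an adjusted p under 0.05, and the dashed line is the median of all 84 targets, at 0.90, 1.46, 0.19 and 0.68 from left to right. Pck2 is called for genotype in RA and CS and G6pc2 in CS, and no gene is called for CS against RA.

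The 2 glucose-6-phosphatase genes at the end of the route had unlike values. G6pc2 reached threshold at 30.3, 30.2, 28.3 and 29.4 cycles in p16+/+ RA and at 28.5, 27.5, 30.8 and 28.9 in p16+/+ CS. It did so at 27.2, 26.6 and 26.7 in p16-/- RA and at 26.33, 26.26, 26.32 and 26.27 in p16-/- CS. As for Pck2 and 33.3% of all targets, the p16-/- lungs preceded the p16+/+ lungs in CT. In p16-/- CS the SD of its CT was 0.036 cycles, the smallest of 84 targets, whose median SD there was 0.832, while the reference mean of the same lungs ran from 23.4 to 26.3. The spread of G6pc2 on the -ΔCT scale in that group is therefore almost that of the reference mean. With reference genes, the p16+/+ RA lungs were at -5.15, -4.08, -2.71 and -3.57 and the p16-/- RA lungs at -2.35, -2.15 and -1.68, without overlap. In CS they were at -3.30, -2.50, -3.48 and -4.75 against -1.74, -1.44, -2.93 and 0.05, and 3 of 4 p16-/- lungs were above every p16+/+ lung. The difference was 1.81 ± 0.78 (SE, 95% interval 0.16 to 3.47) in RA and did not pass (limma adjusted p = 0.081, exact permutation p = 0.057). In CS it was 1.99 ± 0.72 (0.46 to 3.52) and passed (limma adjusted p = 0.038, exact permutation p = 0.057). The CS call was lost when number 1, 3 or 4 of p16+/+ CS, number 1 of p16-/- RA, or number 2 or 4 of p16-/- CS was left out, at differences of 1.47 to 2.06, the lowest without p16-/- CS lung 4 (limma adjusted p = 0.098). The RA difference passed without p16-/- CS lung 4 (limma adjusted p = 0.043).

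G6pc was the earliest of the 5 in p16+/+ CT means, at 27.1 ± 0.42 cycles (SD, n = 4) in RA and 26.6 ± 0.77 (n = 4) in CS, against 25.7 ± 0.15 (n = 3) and 25.5 ± 0.36 (n = 4) in p16-/-. CTs of different genes also depend on each assay, so they do not rank RNA abundance. Its -ΔCT was -2.32, -0.71, -1.07 and -1.64 in the p16+/+ RA lungs, whereas the p16-/- RA lungs were at -0.94, -1.12 and -0.84. In CS it was -0.97, -0.81, -0.27 and -2.63 in p16+/+ and -1.38, -0.65, -1.83 and 1.11 in p16-/-. The p16-/- lungs lay among the p16+/+ lungs in both exposures, apart from the highest value, in p16-/- CS lung 4. The CT of G6pc there was 25.20, beside 25.23 in p16-/- CS lung 3, while the reference means of these lungs were 26.3 and 23.4. The differences were 0.47 (95% interval -1.15 to 2.08, limma adjusted p = 0.71) and 0.48 (-1.01 to 1.98, limma adjusted p = 0.61). Without p16-/- CS lung 4 the CS difference was -0.12.

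Fbp1 was the only gene of the 5 with a lower mean in p16-/- lungs. The p16+/+ RA lungs were at -4.85, -1.27, -1.59 and -2.62 on the -ΔCT scale, and the p16-/- RA lungs at -3.09, -5.28 and -7.15. In CS it was -3.03, -1.18, -1.63 and -2.97 in p16+/+ and -6.22, -5.63, -3.80 and -0.73 in p16-/-. In each exposure 1 lung broke the order: p16+/+ RA lung 1 lay below p16-/- RA lung 1, and p16-/- CS lung 4 lay above every p16+/+ CS lung. The difference was -2.59 ± 1.26 (SE, 95% interval -5.27 to 0.09, limma adjusted p = 0.12) in RA and -1.89 ± 1.17 (-4.37 to 0.59, limma adjusted p = 0.20) in CS, and neither passed. The CS difference was the 83rd of 84 from the highest. Without p16-/- CS lung 4 the CS difference was -3.01 and passed (limma adjusted p = 0.032), and without p16-/- RA lung 1 the RA difference was -3.63 and passed (limma adjusted p = 0.0497). The SD of Fbp1 was 2.03 (n = 3) in p16-/- RA and 2.47 (n = 4) in p16-/- CS, at or above that of 92.9% and 85.7% of targets.

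Gpd1, which feeds glycerolipid synthesis, split the p16+/+ lungs. The p16+/+ RA lungs reached threshold at 30.7, 29.1, 25.8 and 25.5 cycles. The p16+/+ CS lungs did so at 28.8, 24.9, 29.3 and 28.6, the p16-/- RA lungs at 27.0, 24.9 and 25.9, and the p16-/- CS lungs at 24.7, 24.4, 25.3 and 25.7. In each p16+/+ group the earliest and the latest lung were over 4 cycles apart. Its -ΔCT had an SD of 2.72 (n = 4) in p16+/+ RA and 2.0 (n = 4) in p16+/+ CS, each at or above that of 96.4% of targets, against 0.91 (n = 3) and 1.16 (n = 4) in p16-/-. The highest p16+/+ lungs, at 0.34 and 0.09, were as high as p16-/- lungs, which lay between -2.19 and 0.61. The difference was 0.90 (95% interval -1.86 to 3.66, limma adjusted p = 0.70) in RA and 2.25 (-0.31 to 4.81, limma adjusted p = 0.15) in CS. Without p16+/+ RA lung 1 the RA difference was -0.24. The CS difference was 1.96 when p16-/- CS lung 4 was left out.

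CS against RA left all 5 genes below the threshold. In p16+/+ lungs the differences were 0.26 for G6pc, 0.37 for G6pc2, 0.38 for Fbp1, -0.56 for Pck2 and -0.42 for Gpd1, each at a limma adjusted p of 0.98. In p16-/- lungs they were 0.28, 0.55, 1.08, 0.77 and 0.93, at limma adjusted p of 0.79 to 0.89. Without p16-/- CS lung 4 these p16-/- differences were -0.32, 0.029, -0.041, 0.41 and 0.64 in the same order. Calls were 0% of all targets in either direction for both comparisons, and the unadjusted limma p was under 0.05 for 0 targets in p16+/+ and 1 in p16-/-. No gene of the 5 separated CS from RA lungs without overlap, as 0% of targets did in p16+/+ and 1.19% in p16-/-. The exact permutation test gave 0 targets an unadjusted p under 0.05 in both genotypes. The difference of the CS effect between genotypes was 1.33 for Pck2 (95% interval -0.79 to 3.46) and 1.35 for Gpd1 (-2.42 to 5.11), and smaller for the others, at a limma adjusted p of 0.99 for all 5. It passed in 0% of targets, and 0 targets had an unadjusted limma p under 0.05. Without p16-/- CS lung 4 this difference of the effect was 0.96 for Pck2, 1.06 for Gpd1, -0.59 for G6pc, -0.34 for G6pc2 and -0.42 for Fbp1. The intervals of CS against RA were wide, the widest being that of Gpd1 in p16-/- lungs at -1.84 to 3.69.

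The difference of 2 of the genes within the same lung needs no reference gene. Of 10 pairs compared between genotypes in RA and in CS, 7 of 20 comparisons reached the smallest two-sided exact permutation p, 0.029. Adjusted over the 20, this exact permutation p was 0.082 for each, so none passed. With this number of lungs no pair could pass by itself, however far apart its groups lay. Fbp1 minus Pck2 was 1.2 to 2.61 in p16+/+ CS lungs and -5.83 to -1.31 in p16-/- CS lungs, a change of -5.25 ± 1.27 (SE, n = 4 and 4, exact permutation p = 0.029). In RA it was -1.16 to 2.73 against -6.08 to -1.10, a change of -4.62 ± 1.72, and the extremes of the groups just overlapped (exact permutation p = 0.057). G6pc minus G6pc2 was 1.69 to 3.21 in p16+/+ CS and 0.35 to 1.10 in p16-/- CS, a change of -1.51 ± 0.36 (SE, exact permutation p = 0.029). In RA the same pair was 1.65 to 3.37 against 0.84 to 1.41, a change of -1.35 ± 0.43 without overlap (exact permutation p = 0.057). The groups did not overlap for 2 of the 10 pairs in RA and 6 in CS, beside 31.2% and 32.2% of all 3486 pairs of targets. G6pc2 minus Fbp1 was below 0 in all 8 p16+/+ lungs and above 0 in all 7 p16-/- lungs, a position that also depends on the assays, and 16.9% of all pairs of targets separated every p16-/- from every p16+/+ lung. Its changes were 4.40 ± 1.47 in RA and 3.88 ± 1.08 in CS. The other pairs at the smallest p were G6pc minus Pck2 (-2.88), G6pc2 minus Pck2 (-1.37) and Fbp1 minus Gpd1 (-4.14), all in CS.

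**Figure D3:**
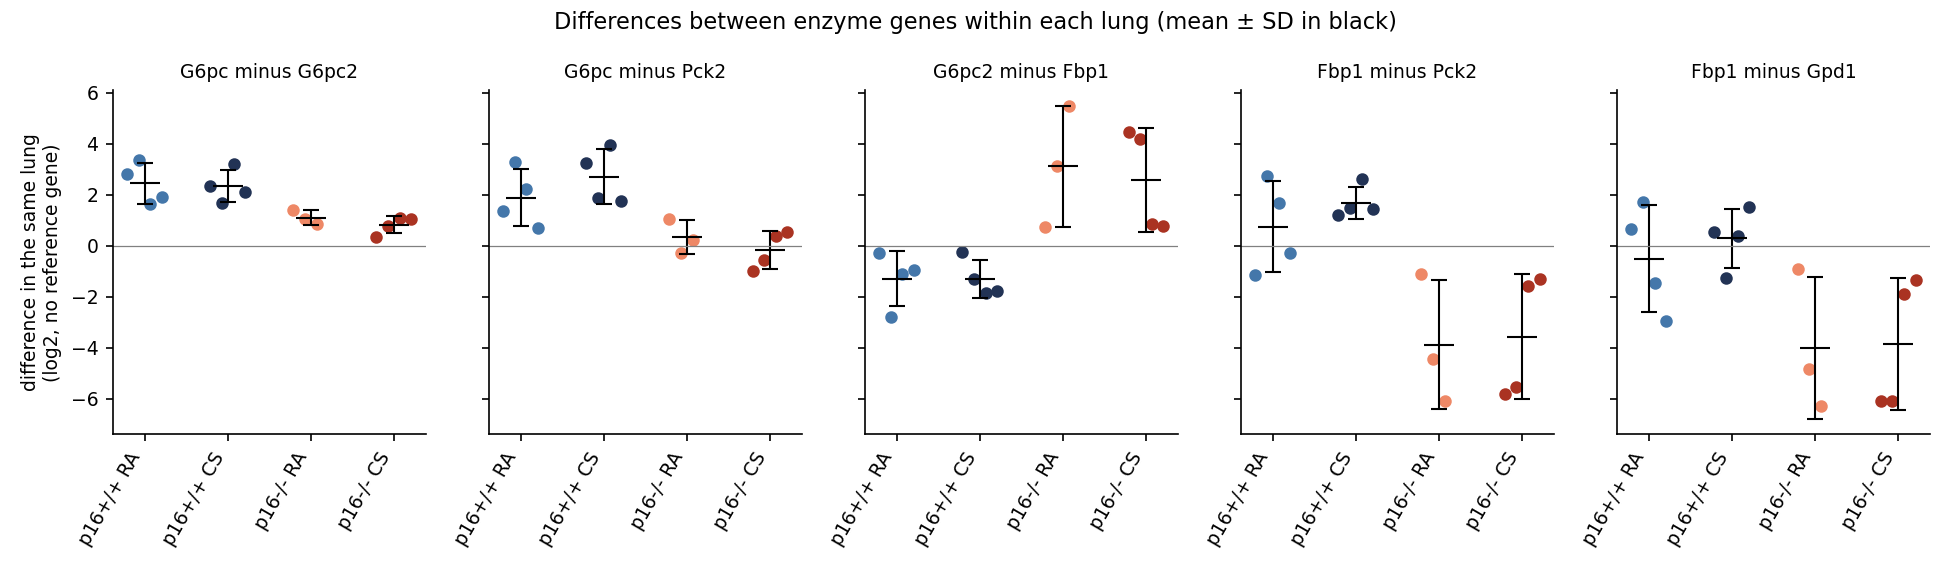
Differences between pairs of the genes within each lung (log2, no reference gene used), with 1 point per lung and mean ± SD in black for the 4 groups. The pairs drawn are ones whose groups did not overlap in CS, picked with that result known, and pairs that overlapped there are not drawn. G6pc2 minus Fbp1 is below 0 in every p16+/+ lung and above 0 in every p16-/- lung, and 16.9% of all pairs of targets separated the genotypes. G6pc minus G6pc2 is smaller in p16-/- lungs.

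The direction of the genotype difference turned on the reference. Gapdh, the glycolytic enzyme and a reference gene of the array, had a mean CT of 25.6 in p16+/+ RA and 25.1 in p16+/+ CS but 21.1 in p16-/- RA and 21.4 in p16-/- CS. The gap of -4.46 cycles in RA and -3.72 in CS stood against gaps of -1.79 to 0.95 for Actb, B2m, Gusb and Hsp90ab1. With Gapdh alone as reference the median of all targets moved from 0.90 to -2.63 in RA and from 1.46 to -1.63 in CS. On that reference Pck2 was at -1.50 and 0.27, G6pc2 at -1.72 and -1.10, G6pc at -3.06 and -2.61, Fbp1 at -6.12 and -4.98, and Gpd1 at -2.63 and -0.84. Of these, G6pc and Fbp1 passed as lower in both exposures and Gpd1 in RA, when 52.4% of all targets did in RA and 23.8% in CS. With Gapdh left out, Pck2 and G6pc2 passed as higher in both exposures, as 39.3% of all targets did in RA and 50% in CS. When each lung was set against the median of its 84 targets, Pck2 was higher in CS (1.36), G6pc lower in CS (-1.51) and Fbp1 lower in RA (-4.05) and CS (-3.89), and G6pc2 was at 0.35 and -0.0035, while the median of all targets was -0.56 and -0.53. On that scale RA had 14.3% of targets called higher and 20.2% lower, and CS 15.5% and 16.7%. The mean of Fbp1 was lower in p16-/- lungs under each of these references, and Pck2 kept its sign in CS, whereas the other signs were not all kept.

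**Figure D4:**
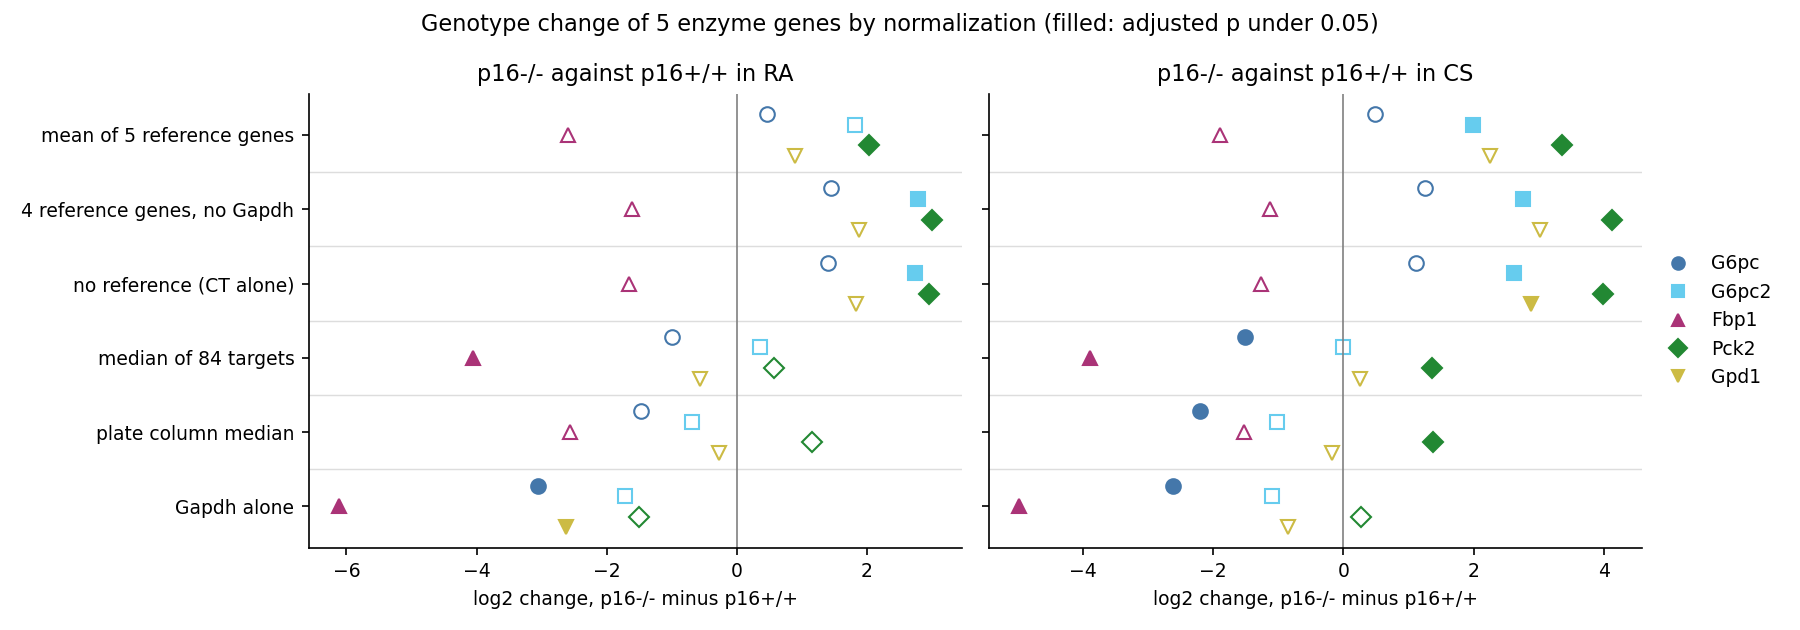
Log2 change of the 5 genes between p16-/- and p16+/+ lungs in RA (left) and CS (right) under 6 ways of normalizing the same CTs, with filled symbols for a limma adjusted p under 0.05. Fbp1 stays left of 0 throughout, whereas Pck2, G6pc2, Gpd1 and G6pc lie right of 0 with the mean of 5 reference genes and move left with Gapdh alone.

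The genotype difference also varied with the place of a gene on the plate. The 56 targets in plate columns 1 to 8 had a median difference of 1.78 in RA and 2.17 in CS. The 28 in columns 9 to 12 had -0.66 and -0.03. No rule set this cut, and single columns did not follow it: the median of column 9 was 0.73 in RA and 1.62 in CS. G6pc (column 3), G6pc2 (column 4), Gpd1 and Pck2 (both column 7) sat in the first set and Fbp1 (column 11) in the second. The other 6 targets in the column of Pck2 had a median of -0.01 in RA and 0.95 in CS, below Pck2 in both. Those beside Fbp1 had -0.41 and -0.24, above Fbp1 in both. Those beside G6pc2 had 2.16 and 2.38, above G6pc2 in both, and those beside G6pc had 1.95 and 2.33. With the column median of each lung taken off, Pck2 was at 1.16 in RA and 1.37 in CS, where it still passed, and Fbp1 at -2.57 and -1.53. G6pc2 was then at -0.69 and -1.02 and G6pc at -1.47 and -2.20, the last passing as lower, when 14.3% of targets were higher and 21.4% lower in CS. The pairs with Fbp1 span both sets of columns. With column medians taken off, the change of Fbp1 minus Pck2 was -3.73 in RA and -2.90 in CS, and that of G6pc2 minus Fbp1 was 1.88 and 0.51. The part of plate position in these differences was not tested.

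**Figure D5:**
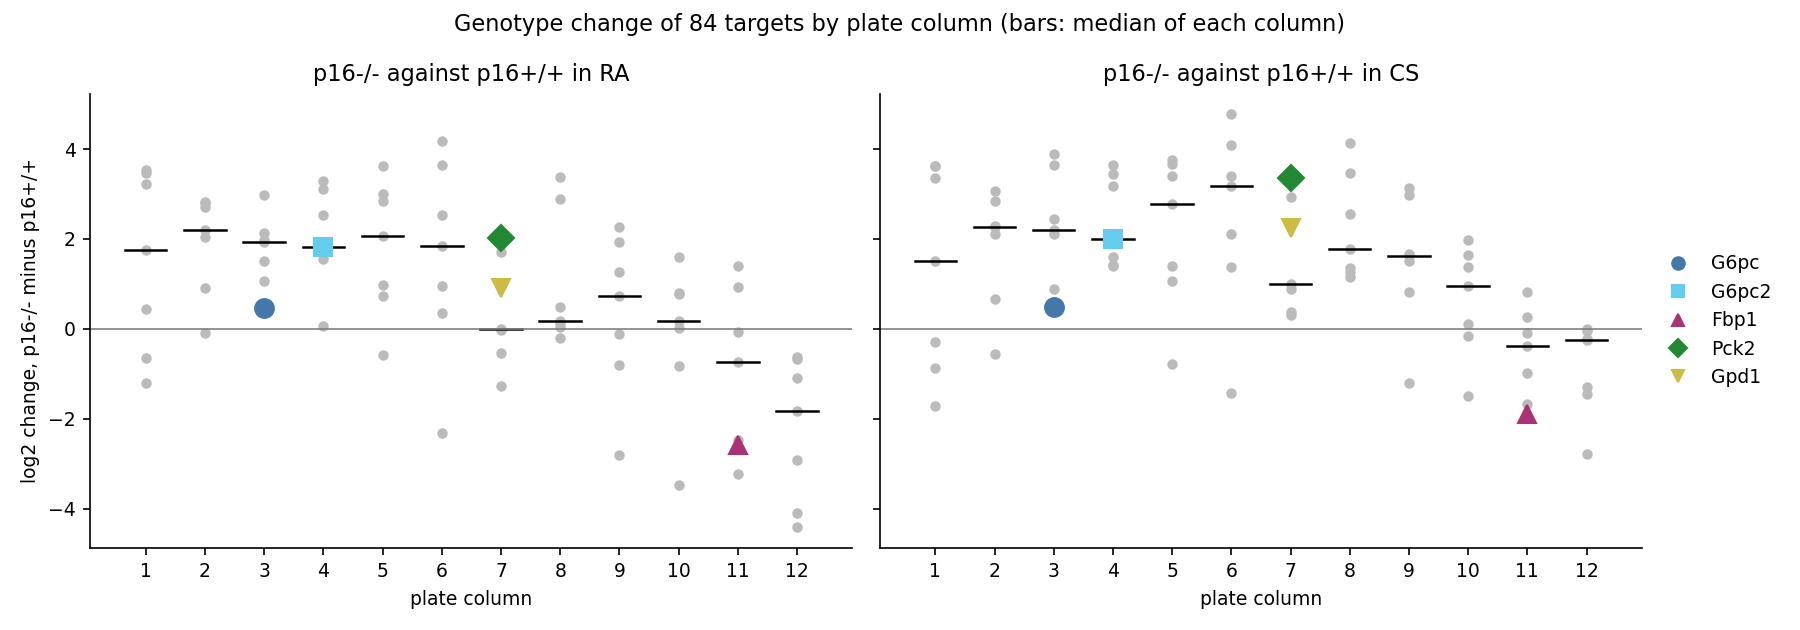
Log2 change of all 84 targets between p16-/- and p16+/+ lungs (grey points; bars are column medians) by plate column in RA (left) and CS (right), with the 5 genes marked. Pck2 lies above and Fbp1 below the median of its column, G6pc2 is itself the middle value of its column, and the medians of columns 11 and 12 are below 0 in both panels.

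Other genes of glucose and lipid metabolism gave a background for the 5, again with the mean of 5 reference genes, under which 28.6% of all targets rose in RA and 38.1% in CS, whereas 0% did with Gapdh alone. Of 4 genes of glucose uptake and glycolysis, 2 rose in p16-/- lungs in RA and 3 in CS (medians 2.21 and 2.88), among them the liver pyruvate kinase gene Pklr (3.47 and 3.63), while the glucose transporter Slc2a1 rose in CS (2.12) and was at 0.95 in RA. Of 4 transcription factors of gluconeogenic and lipogenic genes, Cebpb (2.80 and 3.06) and Pparg (2.05 and 2.28) rose in both exposures, and Srebf1 (-2.80 in RA) and Cebpa (-1.72 in CS) did not pass. Of 10 genes that carry the insulin signal to Akt, 3 rose in RA and 4 in CS, none fell, so the shares were near those of the array, and the medians were 1.5 and 1.74. Pdpk1, the kinase that phosphorylates Akt, was at 3.38 and 3.47 and Akt1 at 3.0 and 3.76. Of 4 genes of fatty acid and triglyceride supply, 2 rose in RA and 3 in CS (medians 1.77 and 2.13), among them Acaca, which makes malonyl-CoA (3.54 and 3.62). No gene of these lists passed for CS against RA.

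Markers of other organs that a lung preparation could carry were measured too. Of 4 adipocyte genes, Retn fell in RA (-2.47) and Cfd rose in CS (3.89), and neither Lep nor Ucp1 passed. Their summed level is the sum of 2 to the power of -ΔCT. It was 0.63 to 2.02 in p16+/+ RA, 0.35 to 2.05 in p16+/+ CS, 0.18 to 0.33 in p16-/- RA and 0.31 to 1.89 in p16-/- CS. In each of the p16-/- groups 1 CT was over 35. Retn had the highest level of the 4 in every p16+/+ lung, at -ΔCT of -0.84 to 0.89 in RA, so there the sum mostly follows Retn. The upper end in p16-/- CS was lung 4. Of the 2 liver genes, Pklr rose in both exposures and Igfbp1 in CS (2.21), and they had a summed level of 0.029 to 0.048, 0.020 to 0.079, 0.25 to 0.30 and 0.16 to 1.32 in the same order. Of 4 hormone genes of other organs, Npy rose in both exposures (3.64 and 4.09), Prl rose in CS (2.94) and Tg fell in RA (-3.47). Their summed levels were 0.12 to 0.33, 0.17 to 0.46, 0.45 to 0.76 and 0.37 to 2.46. Among these hormone genes 1 CT was over 35 in each group except p16+/+ RA, at 39.1 in p16-/- RA. The part of all these markers in the values of the 5 genes was not tested.

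The genes whose pattern was most like each of the 5 were found by Pearson r of -ΔCT, less the median of the lung, over 15 lungs that share the reference and the genotype groups. G6pc was most like Frs3 (r = 0.93) and Retn (r = 0.91), and G6pc2 like Dok1 (r = 0.75). Fbp1 was most like Gsk3b and Hk2 (both r = 0.90), which lie in plate columns 10 and 11. Pck2 was most like Irs1 and Prl (both r = 0.87), and Gpd1 like Dok3 (r = 0.94) and Dusp14 (r = 0.91) in columns 6 and 7. Within groups r was 0.98 for both neighbours of Gpd1 and 0.78 for G6pc2 with Dok1. For the others it was lower than over all lungs. It was 0.85 for G6pc with Frs3 and 0.87 with Retn, and 0.70 for Fbp1 with Gsk3b and 0.81 with Hk2. Pck2 had 0.81 with both of its neighbours. Among the 5 themselves, Fbp1 and Pck2 ran in opposite directions (r = -0.83) and G6pc and Fbp1 in the same one (r = 0.71).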

How the data were processed

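RNA of 15 lungs was measured by the authors on an insulin signaling PCR array with SYBR Green, and the reporting summary names CFX Manager 3.1. CTs, which count cycles and so lie on a log2 scale, were deposited unnormalized with 1 column per lung, and 4 columns equal to group means were left out. A second deposited table of the authors' fold changes and p-values was not used. The rows of Gusb and Hsp90ab1 held 1 value fewer and were moved by 1 place, and the reference mean of p16+/+ RA lung 1, which lacks both, was the one implied by the per-lung Akt1 values of the supplementary data. CTs over 35 or blank, 14 and 4 of the targets, were set to 35, and none of these were among the 5 genes.

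-ΔCT was tested with limma 3.58.1 in R 4.3.3, with a single model for the 4 groups and 11 residual degrees of freedom. Its p was adjusted over 84 targets by Benjamini-Hochberg with 0.05 as threshold. Single values were tested by two-sided exact permutation over lungs, written in Python 3.11.15 (pandas 2.3.3, numpy 2.4.6, and matplotlib 3.10.9 for plots). The limma fit was tested on simulated data. The methods name Student's t-test for 2 groups and an analysis of variance for multiple groups. The t-test was run as an alternative in scipy 1.17.1, on 2 to the power of -ΔCT, and the analysis of variance was not run. Other alternatives were other references, CT limits, plate column medians and lungs left out. The number of lungs limits the precision. Named were the 5 genes, the reference genes, up to 3 genes per list and the 2 most alike genes, and some that this rule names are not reported here. The genes, lists and tests were chosen with earlier results of these data known. RefSeq's GRCm38.p6 tables held all 89 symbols, and promoter windows for 4 of the 5 genes.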

Additional observations from a re-analysis of the deposited data

Results flagged for a closer look

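Among 15 sets of 4 lungs (5 genes in 3 groups), 1 held a lung far from the others by Dixon's test, and chance gives about 1 in 20. Pck2 in p16+/+ CS lung 2 was at -2.66 on the -ΔCT scale, when the other 3 lungs lay between -4.40 and -4.23, with a gap over range of 0.90, past the critical value for 4 lungs.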

How the results depend on the processing

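In RA the count of called genes, 1, became 2 without Actb, without Gapdh (39.3% of all targets higher) and with no reference (38.1% higher). By the methods' t-test it was 2 unadjusted and 2 adjusted, when 35 and 30 of 84 targets passed. It became 0 without B2m, Gusb or Hsp90ab1 and with a CT limit of 30. With plate column medians removed it was 0 in RA, when 11.9% of all targets were higher and 14.3% lower. By the adjusted exact permutation test it was 0 in RA, when 0 of 84 targets passed. The RA count was 3 with the group-mean columns counted as lungs (2 higher, 1 lower). It was 3 with Gapdh alone (all lower, as were 52.4% of all targets) and 1 lower against the median of the targets (20.2% lower, 14.3% higher). In CS the count of 2 became 1 without B2m or Hsp90ab1, with a CT limit of 30 and with only the 2 groups in the fit. By the methods' t-test it was 1 unadjusted and 0 adjusted, when 16 and 0 of 84 targets passed. It was 0 by the adjusted exact permutation test, which called 0 of 84 targets. It was 2 with Gapdh alone (both lower, as were 23.8% of all targets) and 3 against the median of the targets (1 higher, 2 lower, when 15.5% were higher and 16.7% lower). With no reference it was 3 (all higher, with Gpd1 at 2.88, when 56% were higher). With plate column medians removed it was 2 (1 higher, 1 lower, when 14.3% were higher and 21.4% lower). With 1 lung left out the counts were 0 to 2 in RA and 1 to 2 in CS. Where no share of all targets stands beside a count, that count was not set against the array. The smallest exact permutation p, 0.029, passes over 84 targets only if many reach it together, so its 0 calls do not bear on single genes. The counts of CS against RA and of the difference of its effect stayed at 0 in every setting run. Leaving out each reference gene in turn, the CT limits, the 2-group fit and the use of CT values alone for the incomplete p16+/+ RA lung changed no sign in the genotype comparisons, apart from G6pc in RA without B2m (-0.0043). The cause of these changes was not tested.

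Genotype differences that turned sign were, with Gapdh alone, G6pc -3.06, G6pc2 -1.72, Pck2 -1.50 and Gpd1 -2.63 in RA and G6pc -2.61, G6pc2 -1.10 and Gpd1 -0.84 in CS. Against the median of the targets they were G6pc -0.99 and Gpd1 -0.56 in RA and G6pc -1.51 and G6pc2 -0.0035 in CS. With plate column medians removed they were G6pc -1.47, G6pc2 -0.69 and Gpd1 -0.28 in RA, G6pc -2.20, G6pc2 -1.02 and Gpd1 -0.18 in CS, and within lungs G6pc2 minus Gpd1 -0.41 in RA and G6pc minus Fbp1 -0.68 in CS. The methods' t-test was run on 2 to the power of -ΔCT, where Gpd1 in RA was -0.22 as the log2 ratio of group means, a different measure from the difference of mean -ΔCT. For CS against RA in p16-/-, the median gave G6pc -0.42 and G6pc2 -0.15, and plate columns G6pc -0.61, G6pc2 -0.047 and Pck2 -0.10. The difference of the CS effect turned for G6pc and G6pc2 against the median (-0.52, -0.36), with plate columns (-0.73, -0.33), with no reference (-0.29, -0.13) and without Gapdh (-0.19, -0.024), and for G6pc without Actb (-0.11). With 1 lung left out, sign changed within these ranges: Gpd1 in RA -0.24 to 1.70, G6pc in CS -0.12 to 0.86. It did so also for CS against RA in p16+/+, with G6pc -0.035 to 0.75, G6pc2 -0.051 to 0.79, Fbp1 -0.37 to 0.82 and Gpd1 -1.56 to 0.38, and in p16-/-, with G6pc -0.32 to 0.66 and Fbp1 -0.041 to 2.12. The difference of the CS effect ran from -0.59 to 0.40 for G6pc, -0.34 to 0.65 for G6pc2 and -0.42 to 1.74 for Fbp1. Within lungs, G6pc minus Gpd1 (-1.30 to 0.41) and G6pc2 minus Pck2 (-0.51 to 0.16) in RA and G6pc2 minus Gpd1 in CS (-0.78 to 0.17) did so too. No paired analysis was possible because the lung numbers only name lungs and pair none across groups.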
